A study of Mus musculus with 7 samples.

Results

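The inversion Inv2 was compared with the wild type (WT) chromosome in mouse embryonic limb buds, by the capture Hi-C maps and the promoter contact tables of the libraries whose titles name Inv2 and WT. These are 2 of the 7 libraries of the study, which engineered inversions beside Epha4 with CRISPR/Cas9 and mapped the contacts of a 10 Mb region of chromosome 1. Capture Hi-C counts how often pairs of loci are ligated to each other after crosslinking, cutting (here with DpnII, at the letters GATC) and enrichment of the fragments of 1 region. Each library pooled the limb buds of 10 embryos at stage E11.5, with forelimbs and hindlimbs both named in the labels and Distal added in the titles. The WT library carries the genotype WT and the other only the word mutant, so that the inversion is known from the title. The sources used here do not say whether the Inv2 embryos also carried an unchanged chromosome. The cell type field names an embryonic stem cell line (G4 ESC) for every library. Capture Hi-C measures no RNA, so the tissue could not be checked against marker genes.

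Epha4 encodes a receptor tyrosine kinase for ephrins that guides motor axons in the developing limb. Enhancers reach promoters by contact in space, mostly within the same topological domain, a stretch of chromosome whose loci meet each other more often than loci outside it. An inversion keeps the sequence but exchanges the neighbours of the material near its ends, so that an enhancer can come to lie beside other genes. Ihh, on the gene-dense side of the locus, encodes Indian hedgehog, a secreted signal of growing cartilage.

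Both libraries have a table with 1 scaled contact value for each of the same 103 genes, which describes how often the start site of the gene met an enhancer region, and a map of 1000 bins of 10 kb. The sources used here give neither the scaling nor the position of the enhancer region. With 1 library on each side there is no replicate check and no test, and every difference below is one between 2 libraries. The spread available is that of 35 genes near either end of the tables, the far genes, where the difference Inv2 minus WT had an SD of 0.406 scaled units around low values. A share of WT had been taken away from the Inv2 map before deposit and, by the pattern of the negative values, from the Inv2 gene values too, of which 25 are below 0. Genes were counted as above or below WT when the ratio of (value + 0.5), with negative values set to 0 first, was past 2-fold.

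The start sites on which the gene results turn are shown by their promoters, each with the 250 bases before and the 50 bases after the start as given by RefSeq for GRCm38.p6. They are the gene with the highest contact in WT (Epha4), the gene with the highest contact in Inv2 (Nhej1), and the neighbours between which contact was lost most abruptly in Inv2 (Slc23a3 and Cnppd1). All are on the minus strand, and capitals mark GATC, the DpnII site at which a contact can be read. The maps are in mm9, so these positions cannot be set against those of the bins below.
Epha4, chr1:77515039-77515338: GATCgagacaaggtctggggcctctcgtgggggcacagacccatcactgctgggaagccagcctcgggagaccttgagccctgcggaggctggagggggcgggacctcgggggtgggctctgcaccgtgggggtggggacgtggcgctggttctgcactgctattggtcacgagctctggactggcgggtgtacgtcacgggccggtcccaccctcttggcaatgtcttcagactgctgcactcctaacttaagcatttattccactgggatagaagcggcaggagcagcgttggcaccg
Nhej1, chr1:75125177-75125476: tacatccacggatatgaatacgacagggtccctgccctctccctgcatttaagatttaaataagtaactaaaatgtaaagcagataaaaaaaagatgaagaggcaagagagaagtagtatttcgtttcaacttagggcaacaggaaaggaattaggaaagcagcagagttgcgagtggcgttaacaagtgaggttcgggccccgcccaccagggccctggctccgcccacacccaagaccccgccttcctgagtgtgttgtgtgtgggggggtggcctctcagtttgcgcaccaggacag
Slc23a3, chr1:75133841-75134140: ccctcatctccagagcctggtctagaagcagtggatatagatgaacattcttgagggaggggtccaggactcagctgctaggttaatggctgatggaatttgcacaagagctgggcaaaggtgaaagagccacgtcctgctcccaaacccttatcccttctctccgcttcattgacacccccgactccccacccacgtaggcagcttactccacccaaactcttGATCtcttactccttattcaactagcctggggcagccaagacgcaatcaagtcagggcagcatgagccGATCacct
Cnppd1, chr1:75141642-75141941: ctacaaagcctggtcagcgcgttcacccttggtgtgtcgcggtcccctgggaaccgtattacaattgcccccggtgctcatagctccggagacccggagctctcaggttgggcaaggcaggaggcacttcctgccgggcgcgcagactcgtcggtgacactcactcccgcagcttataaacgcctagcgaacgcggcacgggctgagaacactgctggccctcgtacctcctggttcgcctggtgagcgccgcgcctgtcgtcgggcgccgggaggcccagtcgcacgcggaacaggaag
GATC, which reads the same on both strands, occurs 1 time in the Epha4 window, 2 times in that of Slc23a3 and not in those of Nhej1 and Cnppd1. It occurs in 47.97% of the 32851 promoter windows of this length in the RefSeq table.

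Epha4 lost its place as the promoter with the most enhancer contact. Its scaled contact was 7.68 in the WT library, the highest of all 103 genes, and 1.54 in the Inv2 library, where it ranked 32nd. That is 20.02% of WT on the deposited scales, with a log2 ratio of -2.01. The rank depends on the subtraction. With the WT share put back and the sum brought to the WT scale, Epha4 stood at 4.60, below only Nhej1, Slc23a3, Ccdc108 and Cryba2. Of the summed contact of all genes, Epha4 held 8.88% in WT and 0.940% in Inv2. The sum itself was 86.5 in WT and 163.7 in Inv2, with negative values and genes of shared values counted in. Changes in such shares therefore also reflect the change of the sum. The 3 noncoding and predicted genes next to Epha4 in the table were all lower in Inv2 as well. Gm17751 had 4.15 in WT and -0.258 in Inv2. Mir6343 had 4.65 in WT and 1.61 in Inv2, and Mir6352, which follows Epha4 in the table, had 5.55 in WT and 2.48 in Inv2. Epha4 and its 3 neighbours in the table were thus all lower. The far-gene SD comes from genes at 0.574 or less in WT, so it does not give the spread at these higher values. All 3 neighbours were over 2-fold below WT, but only 1 of them when centred on the far genes. With the WT share put back, or with a pseudocount 10 times larger, it was 0 of the 3.

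Of the 5 protein-coding genes from Epha4 to Mogat1, 3 were over 2-fold below WT, namely Epha4, Pax3 and Sgpp2, and none was above. Over all genes 16.5% were below by this rule and 19.4% above. The 3 became 2 when centred on the far genes, 1 (Pax3, with a log2 ratio of -1.24) with the WT share put back and 0 with a pseudocount 10 times larger. Epha4 then had log2 ratios of -1.71, -0.68 and -0.96 in turn, so that it was past 2-fold in the first of these settings only. Pax3, a regulator of the progenitors of muscle and neural crest, had 1.98 in WT and -0.870 in Inv2, the lowest value of the Inv2 table. Sgpp2, which encodes a phosphatase of sphingosine phosphate, had 0.667 in WT and -0.230 in Inv2. For these 2 genes the Inv2 value is 0 after the negative values are set to 0, so the size of the difference is set by the pseudocount. Farsb, a subunit of phenylalanine tRNA synthetase, had 0.853 in WT and 0.950 in Inv2. Mogat1, an acyltransferase of lipid synthesis, had 0.304 in WT and 0.184 in Inv2, with a log2 ratio of -0.23 that turned to 0.058 when centred on the far genes.

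The 6 genes from Cryba2 to Slc23a3, the stretch that holds Ihh, were all over 2-fold above WT. Their WT values lay between 0.260 and 0.814 and their Inv2 values between 6.98 and 20.04, so that the lowest gene of the stretch in Inv2 was above the highest in WT. The median was 0.650 scaled units in WT and 8.94 in Inv2, beside 0.447 and 0.438 over all genes. The stretch held 4.33% of the summed contact of all genes in WT and 43.2% in Inv2.

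Ihh itself had 0.260 in WT, the lowest value of its stretch, and 8.85 in Inv2, a log2 ratio of 3.62. Nhej1, a factor of the joining of broken DNA ends, had 0.709 in WT, where it ranked 31st, and 20.04 in Inv2, a log2 ratio of 4.09. Slc23a3, a member of the nucleobase and ascorbate transporter family, had 0.591 in WT and 17.0 in Inv2, a log2 ratio of 4.01. Nhej1 and Slc23a3 are the 2 genes of the stretch next to the carried genes in table order, and both stood well above the other 4. Cryba2, a crystallin of the lens, had 0.587 in WT and 8.92 in Inv2. Ccdc108, a coiled-coil gene, had 0.814 in WT and 8.95 in Inv2. Mir375, a microRNA best known from endocrine cells of the pancreas, had 0.784 in WT and 6.98 in Inv2. Cryba2, Ccdc108 and Ihh thus had nearly the same contact in Inv2, although Ihh was the lowest of the 3 in WT.

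Further along, the 4 genes from Wnt6 to Fev were also all over 2-fold above WT, with a median of 0.549 in WT and 5.47 in Inv2. Cdk5r2, an activator of the neuronal kinase Cdk5, had 0.365 in WT and 7.09 in Inv2, a log2 ratio of 3.13. Fev, a transcription factor of serotonergic neurons, had 1.31 in WT and 6.73 in Inv2. Wnt6 and Wnt10a, which encode secreted Wnt ligands, had 0.401 and 0.697 in WT. In Inv2 they had 4.22 and 2.98. Together with Ihh these made up a list of 3 secreted limb signal genes, chosen with earlier results known. All 3 of them were above WT, beside 19.4% of all genes, with a median of 0.401 in WT and 4.22 in Inv2. They lie in the 2 stretches described above, so the list is not a separate result. With the WT share put back, 3 of the 4 genes from Wnt6 to Fev and 2 of the 3 signal genes were past 2-fold (Wnt10a then had a log2 ratio of 0.97), and with a pseudocount 10 times larger 1 of each. The Ihh stretch kept 6 of 6 above in both settings.

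The 25 genes beyond, from Tns1 to Prkag3, were mixed, with 7 above WT and 4 below, beside 19.4% and 16.5% over all genes. Centred on the far genes, 10 were above and 0 below. With the WT share put back the counts were 4 and 0, and with a pseudocount 10 times larger 0 and 0. The median of the 25 was 0.279 in WT and 0.622 in Inv2. The largest Inv2 value was that of Ttll4, a tubulin ligase family member, at 3.91 against 0.447 in WT. Prkag3, a regulatory subunit of AMP kinase, had 1.01 in WT and 2.08 in Inv2, within 2-fold. Stk36, the relative of the fly kinase Fused, had 0.480 in WT and 0.917 in Inv2. Usp37, a deubiquitinase, had 0.630 in WT and -0.176 in Inv2 and shared both values with Rqcd1. The other 2 genes below WT, named after their values were seen, were Mir1928 and Ctdsp1. Of the 7 genes above WT, Gpbar1, Tmbim1, Zfp142 and Bcs1l, again named afterwards, are listed at 0 in WT, so no fold is given.

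Past Slc23a3 the table values of Inv2 were low again. The 25 genes from Cnppd1 to Slc4a3 are called the carried genes, because in table order they follow this drop and precede the Epha4 genes. Between Slc23a3 and Cnppd1 the Inv2 value dropped from 17.0 to 0.438, the largest fall between neighbours in that table. In WT the same neighbours had 0.591 and 0.857. For the 13 genes that run from Cnppd1 to Resp18 the median was 0.776 in WT and 0.386 in Inv2. Of these, 2 were above WT, 5 below and 6 within 2-fold, beside 19.4% above and 16.5% below over all genes. All 5 that were below (Zfand2b, Glb1l, Stk16, Dnajb2 and Ptprn, of which only Stk16 and Ptprn were named by rule) have an Inv2 value under 0. Centred on the far genes, 4 of the 13 were above and 4 below. With the WT share put back the counts were 1 and 0, and with a pseudocount 10 times larger 0 and 0. Ptprn, a protein of secretory granules, was the lowest at -0.326 against 1.35 in WT. Stk16, a membrane-bound kinase, had 1.09 in WT and -0.194 in Inv2, and Glb1l shared both values. The highest of the 13 in Inv2 was the uncharacterised A630095N17Rik, at 3.33 against 0.335 in WT. The other gene above WT was Resp18, named after its value was seen, at 2.198 against 0.682.

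The next 12 genes, from Dnpep to Slc4a3, already had more enhancer contact in WT, with a median of 1.90, and had 3.10 in Inv2. Of these, 11 were within 2-fold of WT and 1, Dnpep, was above, at 3.69 against 1.01 in WT. Chpf, which encodes a chondroitin polymerising factor, was the highest in Inv2 at 4.50 against 2.98 in WT, and Tmem198 shared both values. The lowest in Inv2 were Speg and Gm15179, which share 1.18 in WT and 0.701 in Inv2. Over all 25 of the carried genes, as named here, the counts were 3 above and 5 below, shares near those of all genes.

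The 3 genes listed here as muscle genes, Des, Obsl1 and Speg, are among the carried genes, and none of the 3 was past 2-fold. The list leaves out Pax3, which is not a carried gene and was below WT. Des, which encodes desmin of the muscle cytoskeleton, had 1.93 in WT and 2.68 in Inv2. Obsl1, an obscurin-like cytoskeletal adaptor, had 1.87 in WT and 2.16 in Inv2, and Speg, a kinase of striated muscle, was the lower one given above. Of the 6 genes of the kinase list, which leaves out the receptor kinase gene Epha4, Cdk5r2 was above WT, Stk16 was below and the other 4 (Stk36, Stk11ip, Prkag3 and Speg) were within 2-fold. Stk11ip, a binding partner of the kinase Stk11, had 3.10 in WT and 3.77 in Inv2.

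**Figure D1:**
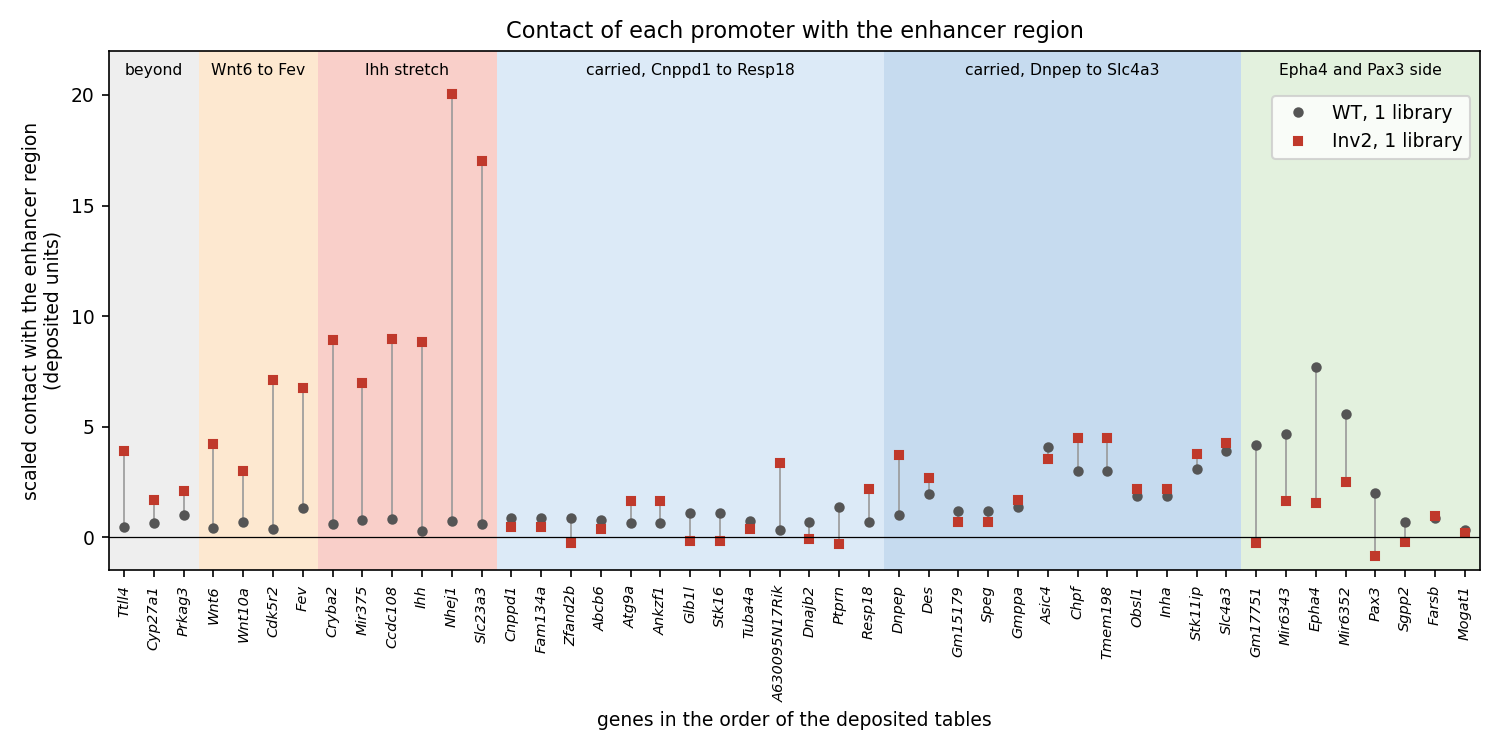
Scaled contact of each promoter with the enhancer region (deposited units) for the genes from Ttll4 to Mogat1 in table order, with 1 point per library and shading by stretch. The Inv2 squares stand between 6.98 and 20.04 in the Ihh stretch and drop to 0.438 at Cnppd1, while Epha4 goes from 7.68 to 1.54.

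Among the far genes 2 of 35 were past 2-fold, both below WT. They were Abca12, a lipid transporter of skin, at 0.574 in WT and -0.542 in Inv2, and Fam124b, named after its value was seen. The highest far gene in Inv2 was Mir6351, at 0.672 against 0.441 in WT. Over all 103 genes 20 were above WT and 17 below, and 13 of the 17 have an Inv2 value under 0. The median log2 ratio was 0.0044 over all genes and -0.29 over the far genes, and centring on the far genes gave 28 above and 7 below. With the WT share put back and the sum brought to the WT scale, 14 were above and 2 below. Epha4 then stood at 4.60 against 7.68 in WT, and Nhej1 at 10.4 against 0.709.

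The same stretches had other values in the other inversions, each of which is compared here with the same WT library. The median of the Ihh stretch was 6.47 in Inv1, 1.55 in Inv3 and 2.77 in Inv4, and that of the Wnt6 to Fev stretch was 4.34, 18.3 and 0.655. For Cnppd1 to Resp18 the median was 13.9 in Inv1, where Inv2 had 0.386. Unlike the Inv2 values, those of Inv1 are not negative for any gene, so Inv1 and Inv2 may differ in scale. Epha4, at 7.68 in WT, was lower in the other inversions too, at 0.487 in Inv1, 1.995 in Inv3 and 1.25 in Inv4.

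The maps locate the rearrangement. The WT map held 5155259 read pairs. Outside the inverted segment it held 4543112, and the Inv2 library held 3832246 there after the subtracted share was put back. In the Inv2 map the subtracted WT signal followed the WT map in file order up to 75.13 Mb and again from 75.90 Mb (mm9, chromosome 1), with 86.3% and 84.2% of the pairs below 0 matching in the bins just outside. It matched at 0% in the first and the last bin between these positions, which gives a segment of 770 kb, or 77 bins. Inside, a position in the file corresponds to 151.03 Mb minus that position in the reference. All values below refer to reference sequence after this turn, unless the order of the Inv2 chromosome is named.

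Contact across the joins followed the new order. Mean contact in squares of 100 kb across the new left join, between the sequence left of 75.13 Mb and that just inside 75.90 Mb, was 27.5 ± 2.36 times the WT contact of these sequences (± is the counting standard error throughout, which covers read counting only). Across the new right join it was 21.9 ± 1.47 times WT. Across the former left join it was 0.983% ± 2.94 of WT and across the former right join 8.28% ± 1.97. These values are those left after the WT share was subtracted, and at the former left join no contact was detectable beyond that share. With the share put back, contact was 0.498 times WT at the former left join and 0.535 times at the former right join. Relative to the mean of each map at the same distance, contact across the new left join was 0.93 and across the new right join 0.57. The corresponding values in WT, at the former left and former right joins, were 1.04 and 0.83. The right join was thus crossed less than a stretch of average chromosome at the same distance, and the left join about as much.

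In WT the segment was divided by a border at 75.61 Mb. The sequence left of it, from 75.13 to 75.61 Mb, is called the carried part, and by table order the carried genes may lie there, although the tables give no positions. The name Epha4 domain is used for the sequence from that border to the first deep WT border right of the segment. Deep means a depth of 1 or more, with depth defined below. No mm9 position of Epha4 was at hand, so its place in this stretch was not checked. From 75.62 to 75.90 Mb the segment took along 280 kb of the Epha4 domain, called the moved part here. Its WT neighbours were the rest of the Epha4 domain, from 75.90 to 77.51 Mb, and its new neighbours the sequence left of 75.13 Mb. The sequence next to the right breakpoint changed its place by 760 kb.

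The moved part exchanged the Epha4 domain for the gene-dense side. It put 33.5% ± 0.106 of its contacts into the rest of the Epha4 domain in WT and 7.97% ± 0.207 in Inv2. With the 200 kb left of the left breakpoint, the left neighbours, the share was 0.678% ± 0.019 in WT and 11.9% ± 0.134 in Inv2, 17.6 times as much. With the next 200 kb it was 0.554% and 3.26%, and with the 600 kb beyond 0.880% and 2.595%. Summed over 1000 kb left of the breakpoint the moved part put 2.11% ± 0.031 of its contacts there in WT and 17.8% ± 0.158 in Inv2. The rest of the Epha4 domain and the next domain together had 39.4% ± 0.116 in WT and 9.68% ± 0.226 in Inv2. The gain on the left was thus smaller than the loss on the right.

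The difference was made up within the segment. The moved part made 45.6% ± 0.178 of its contacts with itself in WT and 58.4% ± 0.438 in Inv2. With the carried part it made 4.60% ± 0.040 and 7.87% ± 0.107, although these sequences are joined in the same way on both chromosomes. Relative to distance, contact of the moved part with itself was 0.98 in WT and 1.40 in Inv2, and with the left neighbours 0.29 and 1.54. With the rest of its former domain it was 2.25 in WT and 1.06 in Inv2, which is about the average of the Inv2 map at the new distance. With the next domain, from 77.52 to 77.93 Mb, it was 4.66 in WT and 2.48 in Inv2, lower in Inv2 but still above that average.

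The gain was steepest at the breakpoint. In the 4 windows of 50 kb nearest the left breakpoint, the moved part made 0.161 to 0.177% of its contacts per window in WT and 1.95 to 5.02% in Inv2. Between 200 and 500 kb the windows had 0.088 to 0.163% in WT and 0.352 to 1.28% in Inv2, and between 500 and 1000 kb 0.058 to 0.082% and 0.106 to 0.285%. All 20 windows up to 1000 kb were higher in Inv2, by 28.4 times next to the breakpoint and 1.44 times at the least. From 1000 to 1600 kb the windows had 0.054 to 0.079% in WT and 0.033 to 0.119% in Inv2, and Inv2 was higher in 4 of these 12 and lower in 8. On the other side every window was lower in Inv2. From 0 to 200 kb right of the right breakpoint the windows had 1.36 to 3.27% in WT and 0.291 to 0.356% in Inv2. Between 200 and 500 kb they had 0.881 to 1.24% and 0.119 to 0.288%, and between 500 and 1000 kb 0.792 to 0.941% and 0.128 to 0.309%. From 1000 to 1600 kb they had 0.753 to 1.04% in WT and 0.214 to 0.367% in Inv2. In WT contact therefore declined from the breakpoint and then held level across the domain. In Inv2 the nearest and the farthest windows overlapped, and those between them reached lower values.

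**Figure D2:**
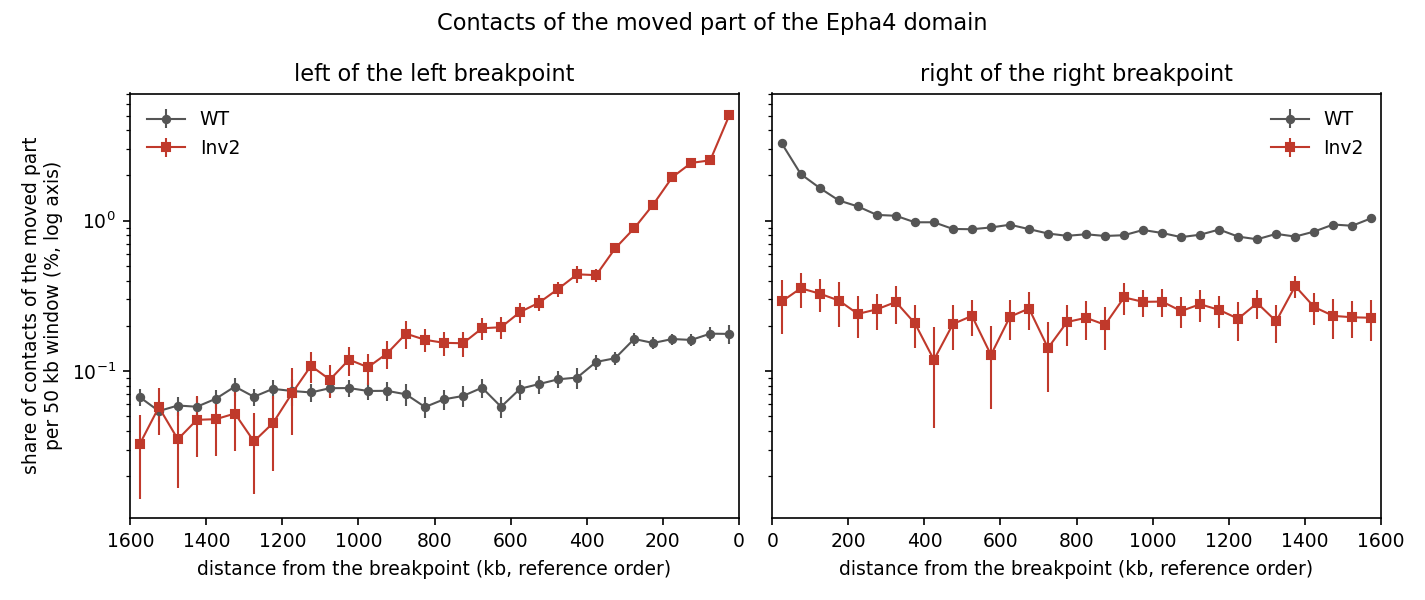
Share of the contacts of the moved part (percent, log axis) in 50 kb windows left of the left breakpoint and right of the right breakpoint, against distance in kb, with 95% counting intervals and 1 library per line. Inv2 is above WT in every window up to 1000 kb on the left (5.02% against 0.177% in the nearest) and in 4 of the 12 beyond, and below it in every window on the right (0.291% against 3.27% in the nearest).

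The carried part of the segment made the opposite exchange. The carried part made 7.77% ± 0.057 of its contacts with the left neighbours in WT and 3.56% ± 0.112 in Inv2. With the rest of the Epha4 domain it made 8.03% ± 0.041 in WT and 18.8% ± 0.123 in Inv2, and with the next domain, from 77.52 to 77.93 Mb, 1.99% ± 0.021 and 4.43% ± 0.062. Relative to distance, its contact with the rest of the Epha4 domain was 0.89 in WT and 1.38 in Inv2. The first 200 kb of the carried part, which come to lie at the right join, reached through the whole domain. In the 50 kb next to the join they made 0.157% ± 0.0092 of their contacts in WT and 2.66% ± 0.058 in Inv2, 17.0 times as much. Between 200 and 1600 kb from it the windows had 0.105 to 0.157% in WT and 0.670 to 1.30% in Inv2, with at least 5.37 times WT in every window. The highest of these in Inv2 was the last window, which ends 1600 kb from the join, near the far border of the domain.

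The rest of the Epha4 domain saw the same exchange from its side. Its share with the moved part was 5.83% ± 0.019 in WT and 1.39% ± 0.036 in Inv2, and that with the carried part 2.39% ± 0.012 in WT and 5.61% ± 0.037 in Inv2. The domain beyond the breakpoint kept its own contacts, with 76.9% ± 0.099 in WT and 78.7% ± 0.236 in Inv2 within itself. The left neighbours gave up contact with the carried part, from 18.7% ± 0.137 in WT to 8.55% ± 0.269 in Inv2. With the moved part they had 0.949% ± 0.027 in WT and 16.7% ± 0.187 in Inv2. With themselves they had 53.2% ± 0.367 and 49.4% ± 0.807. Within the segment the contact of the left neighbours turned around, from 4.22% ± 0.071 with its first 50 kb in WT to 0.106% ± 0.125 in Inv2, and from 0.210% ± 0.011 to 4.14% ± 0.089 with the 50 kb at 500 to 550 kb.

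**Figure D3:**
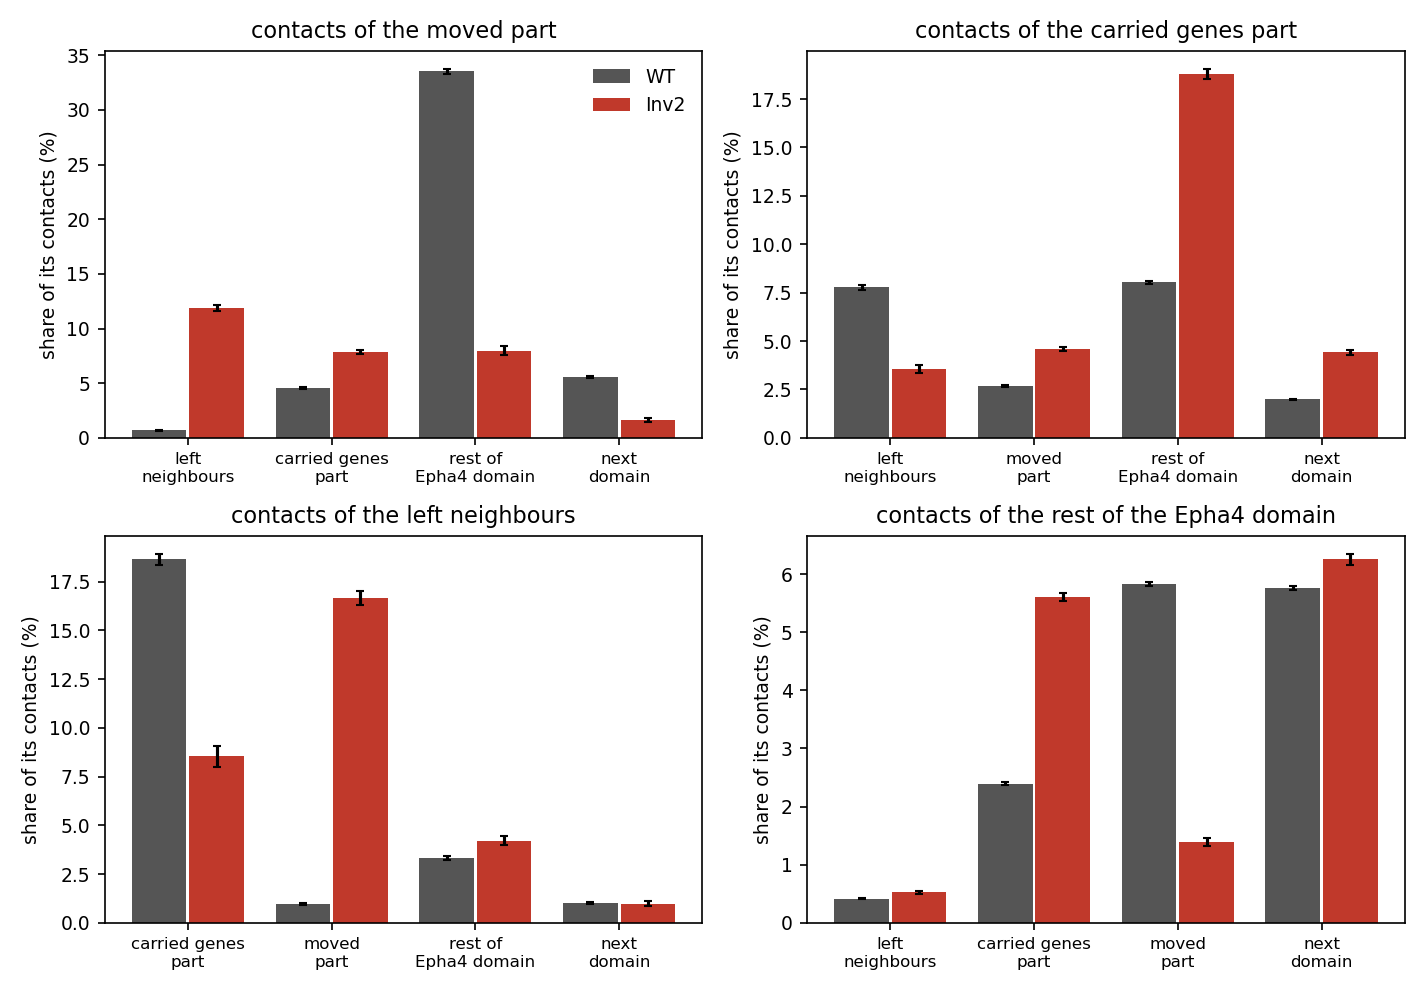
Share of the contacts of each of 4 regions with the other regions (percent), with 1 bar per library and 95% counting intervals. The moved part goes from 33.5% to 7.97% with the rest of the Epha4 domain and from 0.678% to 11.9% with the left neighbours, and the carried part from 8.03% to 18.8% with the rest of that domain.

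**Figure D4:**
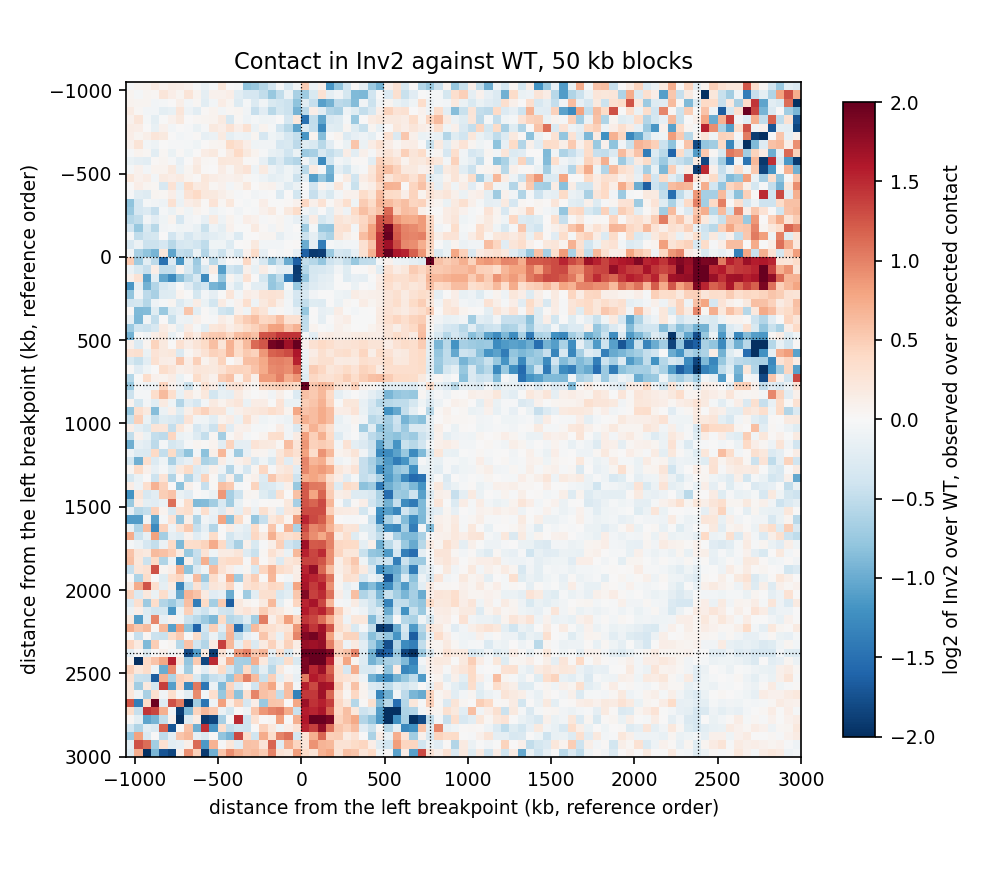
Log2 ratio of Inv2 over WT contact, each relative to the mean of its map at the same distance with a pseudocount of 0.5, in blocks of 50 kb and in reference order, with both axes in kb from the left breakpoint. Dotted lines mark the breakpoints and the WT borders of the Epha4 domain, and red squares mark more contact in Inv2, as between the moved part and the sequence left of 0 kb and between the start of the segment and the whole Epha4 domain.

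Inside the segment the folding was carried over with the sequence. The segment made 61.6% ± 0.130 of its contacts within itself in WT and 64.4% ± 0.306 in Inv2, a direction that turned with negative values set to 0 (61.3%). Over 105 pairs of 50 kb blocks, contact relative to distance correlated with WT at r = 0.815 when the same sequences were compared and at 0.209 when the same file positions were. The blocks share a map and are not independent, so these are descriptions.

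The border of the Epha4 domain went with the segment. It was the deepest border within the segment in WT, at 75.61 Mb with a depth of 1.48 (the log2 drop of contact across it, in squares of 200 kb, against its surroundings). In Inv2 the border was found at 75.40 Mb in the order of the Inv2 chromosome, which is 75.62 Mb in the reference, with a depth of 1.18. Outside the segment 13 of 17 WT borders had an Inv2 border within 30 kb, with an SD of the depth difference of 0.106. The depth of the Epha4 border was 0.306 lower in Inv2, and the largest loss outside was 0.283 at 72.75 Mb. How much lower it was varied with the setting: the Inv2 depth was 1.37 with the WT share put back, 1.34 with squares of 100 kb (1.46 in WT) and 0.69 with squares of 300 kb (1.41 in WT).

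At both joins a border was found in Inv2 that had no WT counterpart. The border at the right join lay at 75.88 Mb in the order of the Inv2 chromosome with a depth of 0.60, and that at the left join at 75.11 Mb with a depth of 0.38. The bin of the latter is thinly covered, with 310 listed pairs in WT against a median of 662.5 per bin, and with squares of 300 kb no border was found there. The insulation score, the log2 of contact across a bin over its mean in the map, was 0.41 in WT and 0.13 in Inv2 at the left breakpoint. At the right breakpoint it was -0.18 in WT and -0.67 in Inv2, so contact across the bin was lower in Inv2 at both ends and more so on the right. The other Inv2 borders without a counterpart lay at 74.49, 74.81, 78.21 and 79.76 Mb, with depths of 0.36, 0.60, 0.30 and 0.83. Borders without a counterpart, some of them as deep, were thus not particular to the joins. The far border of the Epha4 domain, as delimited here, stayed in place, at 77.51 Mb in WT with a depth of 1.20 and at 77.52 Mb in Inv2 with a depth of 0.97.

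**Figure D5:**
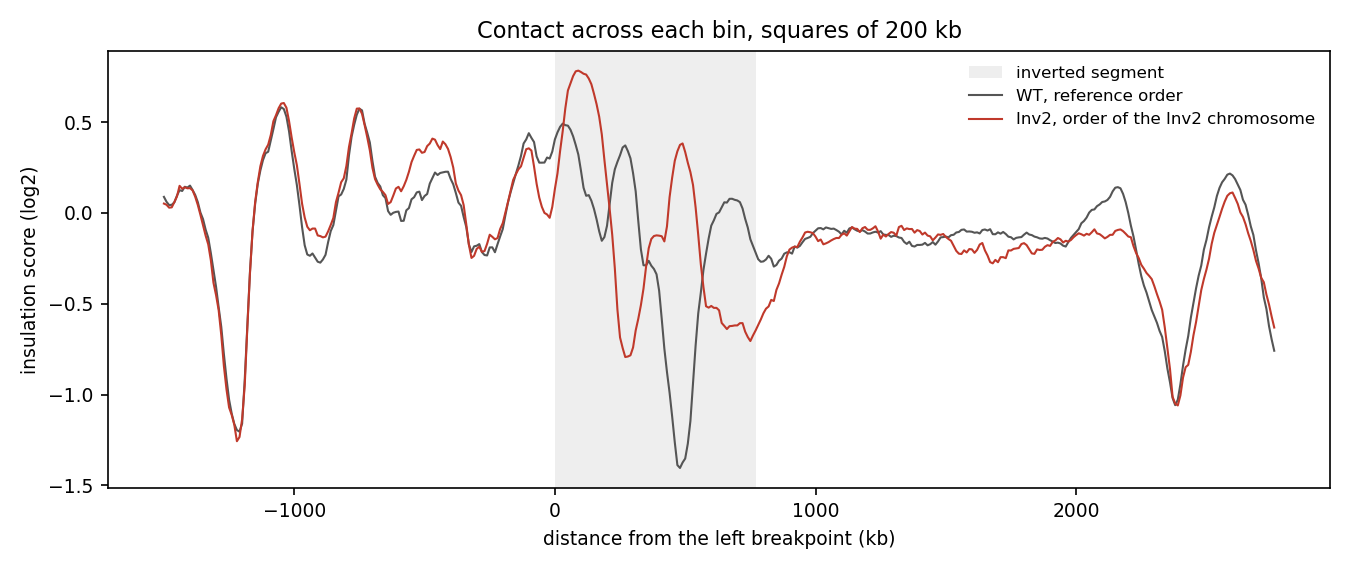
Insulation score (log2, squares of 200 kb) against distance from the left breakpoint in kb, with WT in reference order, Inv2 in the order of its own chromosome and the inverted segment shaded. The WT minimum of the Epha4 border, 480 kb into the segment, is replaced by an Inv2 minimum 270 kb into it, and the Inv2 curve dips again at the right join.

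A stripe is a line of raised contact of 1 anchor with sequence on 1 side of it. Beside the Epha4 border the raised contact was on 1 side in WT and on both sides in Inv2. The anchor next to the Epha4 border was taken where the WT stripe was strongest, at 75.64 Mb, so the WT score describes the choice. There, contact relative to distance over 100 to 1500 kb was 0.65 higher on the log2 scale than in the flanking bins toward the rest of the Epha4 domain, and 0.30 lower toward the gene-dense side. In Inv2 the same anchor lies at 75.38 Mb of the Inv2 chromosome. Its score was 0.49 toward the gene-dense side, which the sequence now faces, and 0.34 on the other side. Over 582 other bins the difference between Inv2 and WT scores had an SD of 0.107 on the left and 0.105 on the right. Each score of the anchor is the highest over its nearest positions, whereas this spread is of single positions. The change toward the gene-dense side, from -0.30 to 0.49, was larger than that spread. Because the segment is turned, it compares opposite faces of the anchor. For the same face of the sequence the score was 0.65 in WT and 0.49 in Inv2, and for the opposite face -0.30 and 0.34. The Inv2 score on the side away from the gene-dense side was 0.44 with the WT share put back, 0.40 with flanks further out and 0.20 with a shorter reach. Toward the gene-dense side the same settings gave 0.33, 0.67 and 0.65, so with the share put back the other side had the higher score.

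Where the order of the sequence was the same on both chromosomes, the maps differed less. Over 1420 pairs of 100 kb windows up to 2000 kb apart the log2 ratio of Inv2 to WT, relative to distance, had a median of -0.0015 and an SD of 0.17, and the correlation was 0.970. Contact between 10 and 100 kb was 1.07 times WT, and it was 1.02, 1.09 and 1.08 times WT in the classes up to 500, 1000 and 2000 kb. It was 0.876 times WT between 2000 and 4000 kb. The exchanges of the moved part and the carried part were larger than these differences.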

How the data were processed

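Capture Hi-C maps and promoter contact tables of the WT and Inv2 limb bud libraries were used, 1 library each, grouped by title. Reads were processed by the authors with Bowtie2 2.2.6 and Juicer on mm9, per the submitters' processing notes, which do not assign the tools to steps. The deposited WT map holds a balanced contact signal per pair of 10 kb bins, and per the file names balancing was by the Knight-Ruiz method. The Inv2 map and the gene tables were deposited by the authors as a scaled score of unstated scale. The Inv2 map has 113786 of 383650 listed pairs below 0. Of these with WT signal, 73.3% lay within 1% of minus 0.423 times the WT map in the order of the Inv2 file, so a WT share of 49.3% of the bin sum had been subtracted. Of the 25 negative values among the Inv2 genes, 11 lay at 0.925 to 0.994 times minus the WT value.

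Here, the segment was located from this match, the map was turned back and scaled to the WT bin sum, and 1 bin was left out because its listed pairs were under 25% of the median per bin. WT values were whole read pairs times bin factors (100% within 0.1). After the share was put back, 99.9% of the Inv2 values under 20 read pairs outside the segment were whole. Counting standard errors come from these pairs, are approximate inside the segment, and do not cover differences between embryos or libraries. A share is the summed contact of a region with another, as a percent of all its contacts in the map. Expected contact is the mean of the same map at the same distance, on the Inv2 chromosome for Inv2. Borders are local minima of the insulation score whose depth over 300 kb reached 0.2. The stripe score sets a 3-bin anchor against bins 3 to 8 on either side.

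The genes named are those of the Ihh, Wnt6 to Fev, Epha4 and Pax3 and role lists, the 8 largest log2 ratios, the genes beside the largest fall in Inv2, and the highest and lowest gene of each other list in Inv2. Lists are taken by table order. The members and lists were chosen with earlier results of these data known. Gm17751, Mir6343 and Mir6352 were taken out of the far genes after their place in the tables was seen. All 103 symbols matched RefSeq, 98 as current symbols and 5 as synonyms. Of the genes, 30 share all values with another gene. Python 3.11.15, numpy 2.4.6 and pandas 2.3.3 were used, and the turn and the subtraction were tested on simulated maps. Other pseudocounts, scalings, filters, region edges and border settings were tried.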

Additional observations from a re-analysis of the deposited data

How the results depend on the processing

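Of 329 alternatives over 68 results, 202 left the value near that reported, 126 moved it and 1 turned its direction: the share of contacts of the segment within itself was 61.3% in Inv2 with negative values set to 0, against 61.6% in WT. The log2 ratio of Mogat1, within 2-fold and counted as near, also changed sign, to 0.058 when centred on the far genes. Over 75 alternatives on shares and joins, 74 kept the direction from WT. No paired analysis was possible because each condition is 1 library and no result comes from a test. For the same reason no library could be left out. Genes above WT numbered 35 and genes below 36 with a pseudocount 10 times smaller, and 7 and 0 with one 10 times larger. Genes below WT were 7 when centred on the far genes, 6 at 3-fold and 2 with the WT share put back (chosen after seeing the data). Of 21 named genes past 2-fold, 21 were still past it with the smaller pseudocount, 7 with the larger, 17 centred on the far genes and 13 with the WT share put back. With the smaller pseudocount, the larger one and the share put back, the median log2 ratio of the Ihh stretch was 4.27, 1.36 and 2.51, and that of the secreted signals 3.24, 0.77 and 1.64. That of the Wnt6 to Fev stretch was 0.83 with the larger pseudocount and 1.48 with the share put back, and that of the Epha4 and Pax3 genes -2.28 and -0.18 with the smaller and larger pseudocount.

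Putting the WT share back into the map undoes the subtraction, so the map again holds the WT signal that was taken away. The Inv2 share of the moved part was then 20.6% with the rest of its domain and 6.38% with the left neighbours. That of the rest of the domain with the carried part was then 4.02%, and that of the left neighbours with it 13.5%. The new left and right joins were 14.4 and 11.6 times WT and the former ones 0.498 and 0.535. With negative values set to 0, the first 3 shares were 9.60%, 11.2% and 5.49%, and the former left join 0.0998 of WT. With the stricter filter the moved part had 10.9% with the left neighbours. With regions drawn in by 2 bins on each side it had 7.88%, the rest of the domain had 4.74% with the carried part (2.02% in WT) and the left neighbours had 7.50% (15.0% in WT). The joins were then 17.5 and 13.7 (new) and 0.0727 and 0.141 (former) of WT. With insulation squares of 100 kb, 21 of 23 WT borders outside the segment had a counterpart. The depth of the border at the right join was 1.40 with the share put back. That at the left join was 1.04 with the share put back and 0.79 with squares of 100 kb. The cause of these shifts was not tested. At the former joins little Inv2 signal remains after the subtraction, so those values depend on the share taken away as well as on the depth of reads.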

Other observations

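Some regions farther from the breakpoints also differed, by less. The gene-dense region 400 to 1000 kb left of the breakpoint made 0.411% ± 0.0093 of its contacts with the moved part in WT and 1.21% ± 0.029 in Inv2, and 2.78% ± 0.025 and 1.56% ± 0.053 with the carried part. Its contact with itself was 70.6% ± 0.191 in WT and 71.1% ± 0.440 in Inv2. The domain that follows the Epha4 domain on the right made 3.78% ± 0.031 of its contacts with the moved part in WT and 1.13% ± 0.061 in Inv2, and 2.33% ± 0.025 and 5.18% ± 0.073 with the carried part. Its share with the rest of the Epha4 domain was 22.6% ± 0.076 in WT and 24.6% ± 0.185 in Inv2.

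The moved part was not uniform at its ends. Its stretch beside the right breakpoint made 5.24% ± 0.149 of its contacts with the 50 kb left of the left breakpoint in Inv2, and its stretch beside the former border 4.79% ± 0.152. In WT these were 0.164% ± 0.018 and 0.189% ± 0.019. With the first 50 kb inside the left breakpoint, the stretch beside the right breakpoint had 0.164% ± 0.011 in WT and 0.862% ± 0.043 in Inv2. For the stretch beside the border the values were 0.180% ± 0.013 and 0.177% ± 0.028, so that only the outer stretch differed there by more than the counting error. These are the opposite ends of the inverted segment, and each end lies at a join in Inv2.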
